A study of Mus musculus with 12 samples.

Results

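The genes described here are those whose response to LPS differed between splenic B cells with both Ebf1 alleles floxed and control cells with 1 floxed allele. They were found as a difference of differences over all 12 arrays of the series: the LPS response of fl/fl cells minus the LPS response of +/fl cells, called the interaction. Of 17134 genes tested, 30 passed an adjusted p of 0.05 (0.175%), 18 of them with an interaction above 0 (0.105%) and 12 with one below 0 (0.07%). At an unadjusted p under 0.05 there were 3485 genes (20.3%).

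The mice were C57BL/6, of genotype Ebf1fl/flRERTCre or Ebf1+/flRERTCre (the heterozygote control), so every animal carried a tamoxifen-activated ER-Cre and at least 1 floxed allele, and there was no group without Cre. All were given 3 mg of Tamoxifen-Citrate on each of 4 days and were killed on day 10. Sorted B cells were left resting or were stimulated with LPS, which gave the 4 groups resting fl/fl, resting +/fl, LPS fl/fl and LPS +/fl with 3 arrays in each. The labels give no age, no LPS dose or duration, no promoter for the Cre and no extent of deletion. Of the 2 sort gates named, B220+AA4.1- alone and the same with CD21lo added, neither is assigned to any sample. Triplicates are named without saying whether they came from separate mice, so the spread behind each p-value may be technical.

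Ebf1 is a transcription factor that opens and activates B-lineage genes during B cell development and helps mature B cell subsets persist. LPS is a bacterial ligand of TLR4; it drives splenic B cells out of rest, through growth and division, toward antibody-secreting cells. The interaction asks whether that passage looks different in fl/fl cells. It arises equally from a gene that LPS moves in 1 genotype only and from a gene that differs at rest and converges.

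Values are log2 Cy3 signal minus that array's 75th percentile, so 0 is the signal at that percentile and negative values are dimmer. The brightest probe stands for each gene, and levels are compared between groups for 1 probe, never between probes. Arrays lay on 3 slides of 4. Between 54.4% and 61.4% of 43379 spots were well above background on 11 arrays and 83.2% on LPS fl/fl replicate 2, which stands apart. Resting +/fl replicates 1 and 3 read high for myeloid genes, as given below. The summed signal of erythroid markers was 87.9, 38.6 and 69.2 times the array's 75th percentile in resting +/fl cells. In resting fl/fl cells it was 103, 34.1 and 11.2, so its highest array was resting fl/fl replicate 1. The B cell markers Cd79a, Cd79b, Ms4a1, Cd22 and Pax5 were above background on all 12 arrays, and none passed the interaction test (adjusted p 0.118 to 0.852).

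Ebf1 itself did not pass at either of its probes. At the probe for NM_007897 the 3 resting +/fl arrays read 0.75 to 1.40 and the LPS +/fl arrays 1.01 to 1.17, while the resting fl/fl arrays read 1.68 to 1.81 and the LPS fl/fl arrays 1.11 to 1.29. That is an LPS response of −0.03 in +/fl and −0.53 in fl/fl cells and an interaction of −0.50 (SE 0.21, n = 3 in each group, limma adjusted p 0.247 over all probes). The dimmer probe for AK036716 ran the other way between genotypes: −3.16 to −2.18 in resting +/fl and −4.71 to −2.64 in LPS +/fl cells, against −5.01 to −4.21 in resting fl/fl and −4.63 to −4.19 in LPS fl/fl cells. It was lower in fl/fl cells at rest by 1.90 (adjusted p 0.0432), where the first probe was higher by 0.62 (adjusted p 0.0382), and its interaction was 0.98 (SE 0.69, adjusted p 0.452). Which exons are floxed is not stated in the labels. Whether either probe lies in the deleted part therefore cannot be told, and the extent of deletion cannot be read from them.

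Immunoglobulin heavy chain probes made up 3 of the 30 genes, and their sequences are shown first because a pair of them share letters. The probes are those that the array files name L20961 (described there as a rearranged H-chain V region), ENSMUST00000095369 (a predicted heavy chain V region) and Igh (M19903, a rearranged gamma chain). Each is 60 bases long, printed 5′ to 3′, and the files place all of them on the minus strand of mouse chromosome 12, build mm7, at chr12:111555238-111555297, chr12:111843790-111843849 and chr12:112168065-112168124. Capitals mark the longest run shared by the first and second probe, 25 bases.
L20961: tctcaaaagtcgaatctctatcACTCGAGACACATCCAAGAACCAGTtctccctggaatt
ENSMUST00000095369: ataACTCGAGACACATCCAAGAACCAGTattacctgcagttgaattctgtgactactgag
Igh: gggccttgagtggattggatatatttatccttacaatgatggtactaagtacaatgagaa
The Igh probe shares no run longer than 4 bases with either. Because V genes form a large family of near copies, RNA of related segments can bind 1 probe, so L20961 and ENSMUST00000095369 are not independent readings and none of the 3 names a single V gene with certainty.

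All 3 heavy chain probes followed 1 course: high in resting +/fl cells, low in resting fl/fl cells, and in between after LPS in both genotypes. At L20961 the resting +/fl arrays read 0.49, 0.32 and 0.92 and fell to −0.51, −0.73 and −0.71 with LPS. The resting fl/fl arrays read −3.03, −2.90 and −2.77 and rose to −1.04, −0.69 and −1.14. Resting groups are far apart and LPS groups overlap. The interaction was 3.17 (SE 0.25, n = 3 in each group, limma adjusted p 0.00271), an 8.99-fold difference between the LPS responses. ENSMUST00000095369 had an interaction of 2.76 (SE 0.30, adjusted p 0.0113) and Igh one of 2.58 (SE 0.26, adjusted p 0.00735). These were 3 of 60 probes described as immunoglobulin heavy chain. The other probes did not pass. Over all 60 the median interaction was 0.10, with 31 above 0, 13 above 0 and 0 below 0 at an unadjusted p under 0.05, and a range from −0.91 to 3.17.

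Across the 30 genes, the genotypes differed more at rest than after LPS. The genotype difference (fl/fl minus +/fl) passed the test at rest in 29 of the 30 and after LPS in 5, where 8.81% and 1.69% of all genes passed. Its median absolute size was 1.43 at rest and 0.37 after LPS, beside 0.28 and 0.25 over all genes. In 27 of the 30 it was smaller after LPS (52.2% of all genes). The exceptions were BC039093, 1810055G02Rik and Usp24. The fitted difference turned sign in 22 of the 30 genes (44% of all genes). Values of the genotypes did not overlap for 29 genes at rest (31.2% of all genes) and for 19 after LPS (33.4%). These contrasts use the same arrays as the interaction and are given as description, not as support for it.

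**Figure D1:**
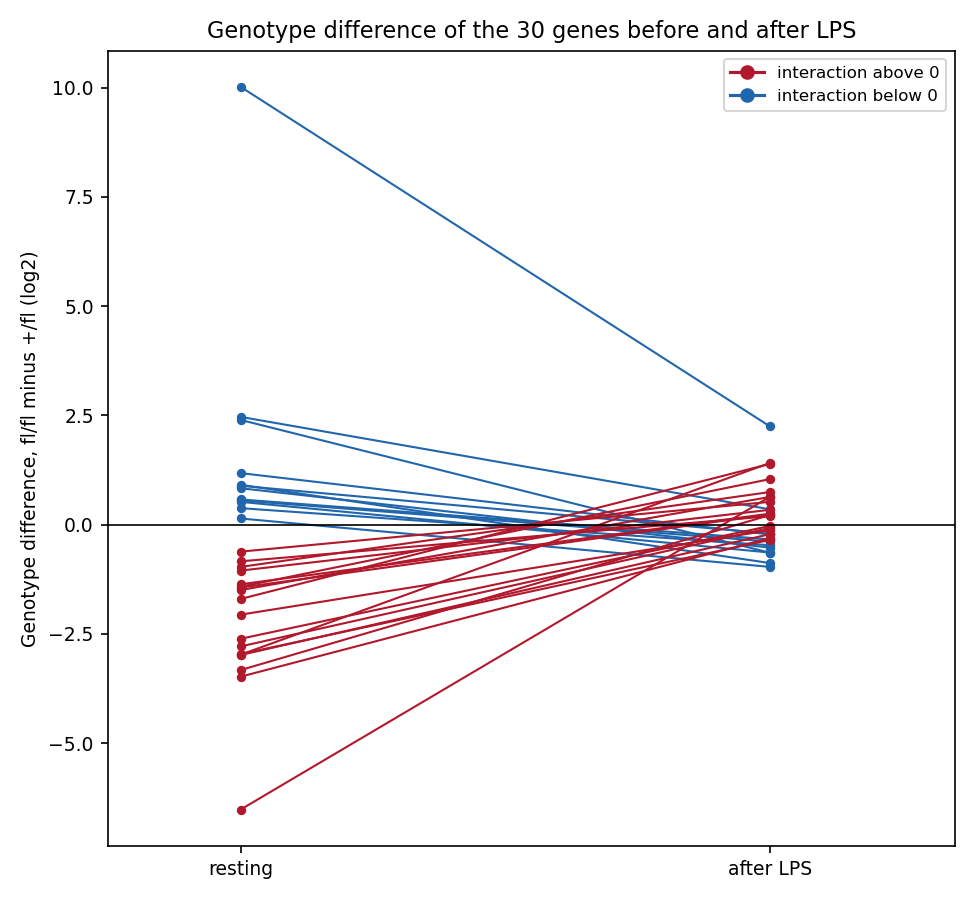
Genotype difference (fl/fl minus +/fl, log2) of each of the 30 genes in resting cells (left) and after LPS (right), 1 line per gene, coloured by the sign of the interaction. Lines open wide at rest and mostly lie closer to 0 after LPS: the median absolute difference is 1.43 at rest and 0.37 after LPS. Of the 30 lines, 22 cross 0.

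The fitted LPS response was below 0 in both genotypes for 13 of the 30 genes, below 0 in +/fl and above 0 in fl/fl cells for 9, the opposite for 3 and above 0 in both for 5. Over all genes the shares were 40%, 11.2%, 7.45% and 41.3% in that order. The LPS response passed the test in 24 of the 30 genes in +/fl cells and in 20 in fl/fl cells, where 57.7% and 55.6% of all genes passed.

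**Figure D2:**
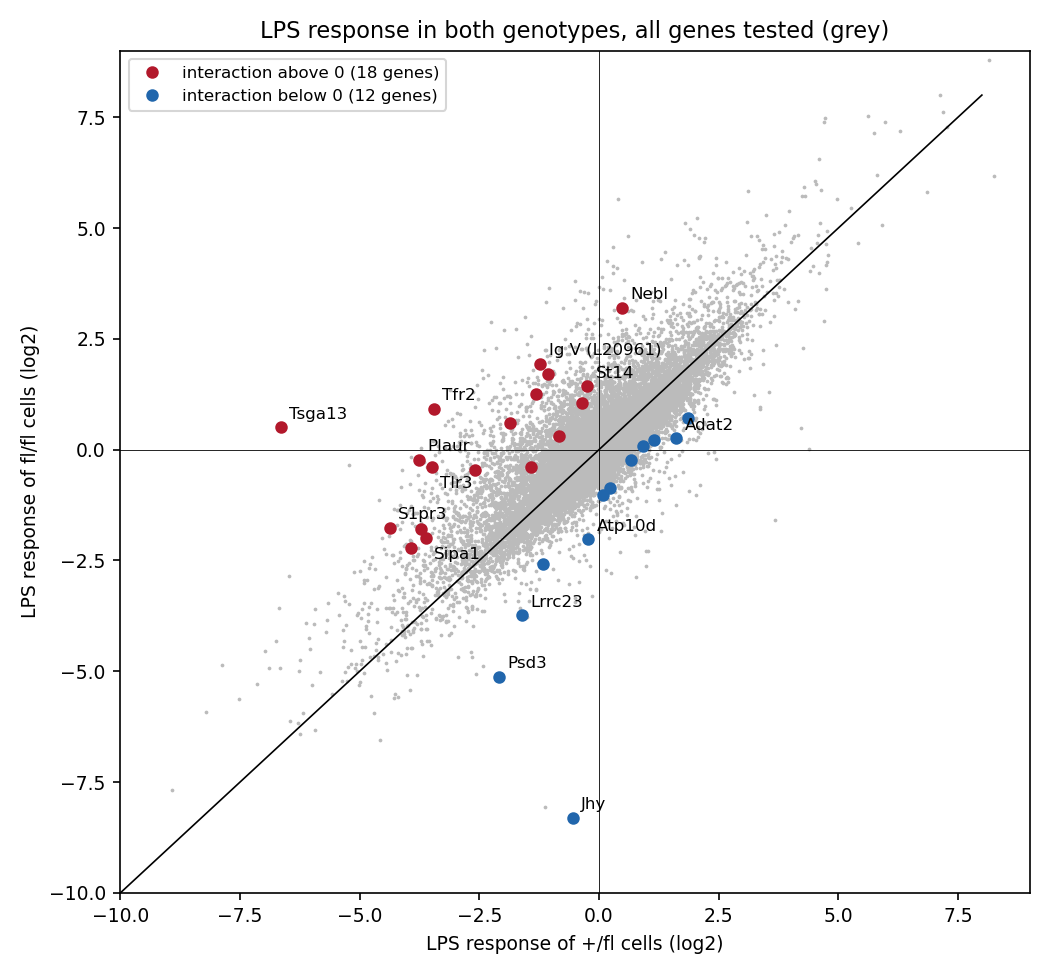
LPS response (log2, LPS minus resting) of +/fl cells on the x axis and of fl/fl cells on the y axis, with all 17134 genes in grey and the 30 interaction genes in colour. Red points (18 genes, interaction above 0) lie above the diagonal of equal response and blue points (12 genes, below 0) lie under it.

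The largest group held 12 genes that were high in resting +/fl cells and lower in every other group, with an interaction above 0: S1pr3, Plaur, Tlr3, Tsga13, Tfr2, Sipa1, Ceacam2, Mrgpre, Kcnmb4, Cln8, Ehhadh and St3gal6. LPS lowered all 12 in +/fl cells. In fl/fl cells, already lower at rest, the fitted responses ran from −2.22 for Ceacam2 to 0.93 for Tfr2.

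S1pr3 encodes a receptor for sphingosine-1-phosphate, and marginal zone B cells are known for expressing it. It read 1.05, 0.91 and 1.21 in resting +/fl cells and −2.98, −3.64 and −3.34 after LPS. In fl/fl cells it read −2.03, −1.92 and −1.76 at rest and −3.81, −3.35 and −3.84 after LPS. Resting fl/fl cells thus lay between the resting and the LPS-treated controls, and the LPS groups overlapped. It fell by 4.38 (log2) in +/fl and by 1.76 in fl/fl cells, an interaction of 2.61 (SE 0.27, adjusted p 0.00735). A dimmer second probe had 5.10 (SE 1.07, adjusted p 0.0894 over all probes). S1pr3 was the only one of the 30 on any of the 31 gene lists, that of marginal zone B cells. Cr2, which encodes CD21, the antigen of 1 of the sort gates, read 3.95 to 4.18 in resting +/fl cells and 1.54 to 1.72 in resting fl/fl cells, and 1.66 to 2.03 and −0.26 to −0.01 after LPS. Its interaction was 0.48 (adjusted p 0.179). Whether a gate contributed to the S1pr3 values was not tested. In bulk RNA, fewer cells of a type and less RNA per cell cannot be told apart.

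Plaur encodes the urokinase receptor, a GPI-anchored surface protein that focuses plasminogen activation on the cell. Its 3 resting +/fl arrays read 3.37, 3.73 and 3.56, and the other 9 arrays lay between −0.45 and 0.79: LPS +/fl at −0.45, −0.05 and −0.14, resting fl/fl at 0.32, −0.43 and 0.79, and LPS fl/fl at −0.33, 0.24 and 0.10. The resting controls stand alone and the other 3 groups overlap. LPS lowered it 13.6-fold in +/fl cells (log2 −3.77) and changed it by −0.22 in fl/fl cells (adjusted p 0.535), an interaction of 3.54 (SE 0.40, adjusted p 0.0115). A second probe passed as well, at 3.35 (SE 0.37, adjusted p 0.0122 over all probes).

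Tlr3 encodes an endosomal receptor for double-stranded RNA. It read −1.88, −2.63 and −2.58 in resting +/fl cells and was not well above background on any LPS +/fl array. In fl/fl cells it read −4.35, −3.98 and −3.86 at rest and −4.54, −4.51 and −4.34 after LPS, above background on all 6 arrays. The order of the genotypes turned over: lower in fl/fl cells at rest by 1.70 (log2, adjusted p 0.00678) and higher after LPS (adjusted p 0.033). Against the background limit the fall in +/fl cells was at least 8.76-fold, and LPS fl/fl cells were at least 2.04-fold above LPS +/fl cells. Such a bound sets the brighter group's mean against the lowest signal that counted as well above background on each array of the dimmer group. The fitted interaction was 3.09 (SE 0.34, adjusted p 0.0113), and a second probe had 1.65 (adjusted p 0.256 over all probes).

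Tsga13, named for its expression in testis, and Tfr2, a transferrin receptor that takes part in iron sensing, gave the largest fitted values of this group and the least certain. Tsga13 read −0.28, −0.81 and −0.60 in resting +/fl cells and was below background on 8 of the other 9 arrays. The exception was LPS fl/fl replicate 2, at −4.25. It was at least 30.5-fold higher in resting than in LPS +/fl cells and at least 25.1-fold higher in resting +/fl than in resting fl/fl cells, and the fitted interaction was 7.15 (SE 1.08, adjusted p 0.0433). Tfr2 read −1.83, −3.62 and −2.61 in resting +/fl cells and between −6.20 and −4.08 elsewhere, with none of the LPS +/fl and 1 of the resting fl/fl arrays above background. Its fall in +/fl cells was at least 6.99-fold (fitted interaction 4.38, SE 0.64, adjusted p 0.0433).

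Sipa1, a GTPase-activating protein for the adhesion regulator Rap1, read 4.58 to 4.77 in resting +/fl and 3.11 to 3.57 in resting fl/fl cells, and 0.99 to 1.13 and 1.17 to 1.54 after LPS. It fell 12.2-fold in +/fl and 4-fold in fl/fl cells (interaction 1.61, SE 0.21, adjusted p 0.0274), and a second probe had 1.73 (adjusted p 0.0509 over all probes). Ceacam2, an adhesion molecule with the close paralog Ceacam1, fell 15.3-fold in +/fl and 4.66-fold in fl/fl cells (interaction 1.71, SE 0.23, adjusted p 0.0344). Whether its probe also binds Ceacam1 RNA was not checked. Mrgpre, a Mas-related G protein-coupled receptor, fell 13.2-fold and 3.47-fold (interaction 1.93, SE 0.28, adjusted p 0.0417).

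Among the remaining 4 genes of the group, Kcnmb4, an accessory subunit of calcium-activated potassium channels, fell by 2.60 in +/fl cells and changed by −0.47 in fl/fl cells (adjusted p 0.0671), an interaction of 2.13 (SE 0.28, adjusted p 0.0293). Cln8, an endoplasmic reticulum membrane protein, had 2.46 (SE 0.37, adjusted p 0.0433), with −0.12, −1.02 and −0.36 in resting +/fl cells against −2.55 to −0.99 elsewhere, which overlaps at 1 array. Ehhadh, an enzyme of peroxisomal fatty acid oxidation, and St3gal6, a sialyltransferase, had smaller values of 1.03 (SE 0.15, adjusted p 0.0433) and 1.14 (SE 0.16, adjusted p 0.0417). LPS lowered St3gal6 in +/fl cells by 0.83 and raised it in fl/fl cells by 0.31 (adjusted p 0.0412).

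Promoters of the 30 genes were read for the core letters of the EBF site, since Ebf1 is the floxed gene. RefSeq's promoter windows (GRCm38.p6, 250 bases before to 50 after each start) were matched by symbol for 20 of the genes, with 29 windows. The 8-letter core CCCNNGGG, which reads the same on both strands, stood in windows of 6 genes: Plaur, Mrgpre, Kcnmb4, Ehhadh, St3gal6 and Nr2f6. Counted by window, that was 6 of the 29, beside 13.7% of all 32851 windows. The longer form of the site, which contains the core, stood in none of the 29 windows (0.904% of all). Of 4 other motifs searched for comparison on both strands, chosen after the values were known, the kB decamer was found for Tfr2 (0.155% of all windows), the spaced ISRE for Nebl (3.44%), the E box CAGGTG for 1810055G02Rik and Nebl (20.2%) and the PU.1 core GAGGAAGT for no gene (3.2%). A match is a description of the letters and no evidence of binding. The 250 bases before the start are printed for Plaur (chr7:24462233-24462482, plus strand) and Mrgpre (chr7:143784501-143784750, minus strand), chosen among the 6 because both encode cell-surface receptors, with the core in capitals.
Plaur: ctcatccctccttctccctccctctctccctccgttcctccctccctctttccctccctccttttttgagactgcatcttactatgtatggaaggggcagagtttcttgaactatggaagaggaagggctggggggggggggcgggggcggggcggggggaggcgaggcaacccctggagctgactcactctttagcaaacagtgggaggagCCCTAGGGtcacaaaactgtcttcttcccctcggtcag
Mrgpre: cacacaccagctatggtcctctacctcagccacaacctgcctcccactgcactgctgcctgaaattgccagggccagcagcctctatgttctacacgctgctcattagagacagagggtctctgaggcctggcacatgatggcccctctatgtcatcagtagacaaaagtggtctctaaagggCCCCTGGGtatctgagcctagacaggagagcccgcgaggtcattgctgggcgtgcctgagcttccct
The core starts 38 bases before the annotated start of Plaur and 67 before that of Mrgpre.

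In a second group the resting fl/fl cells stood out by being low, and LPS raised them toward the controls. Besides the 3 heavy chain probes it held Nebl, St14 and AI452195. Nebl encodes nebulette, an actin-binding protein. It read −2.05, −2.22 and −1.74 in resting +/fl cells and −1.36, −1.69 and −1.49 after LPS. Resting fl/fl arrays read −4.59, −4.89 and −4.90, and LPS fl/fl arrays −1.70, −1.35 and −1.73. The 3 resting fl/fl arrays lie below all the others, and the LPS groups overlap. LPS raised it 9.19-fold in fl/fl cells and 1.4-fold in +/fl cells, an interaction of 2.71 (SE 0.23, adjusted p 0.00279). St14 encodes matriptase, a membrane-anchored serine protease. It read 0.34 to 0.67 in resting fl/fl cells and 1.27 to 2.14 on the other 9 arrays (interaction 1.67, SE 0.26, adjusted p 0.0451). AI452195, an expressed sequence with no function known here, had 1.39 (SE 0.20, adjusted p 0.0433).

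Another group ran the other way: 7 genes with an interaction below 0 that LPS lowered in fl/fl cells and lowered less, or left near their level, in +/fl cells. They were Jhy, Psd3, Lrrc23, Atp10d, Tmem210, Nr2f6 and BC039093, and the first 6 were higher in resting fl/fl than in resting +/fl cells.

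Atp10d encodes a P4-type lipid flippase and had the smallest p of the 12 genes below 0. Resting +/fl arrays read 1.19, 1.45 and 1.31 and LPS +/fl arrays 1.06, 0.99 and 1.22. Resting fl/fl arrays read 2.27, 2.23 and 2.19 and LPS fl/fl arrays 0.11, 0.21 and 0.31. The fl/fl cells thus lay above both control groups at rest and below both after LPS, with no overlap on either side. LPS lowered it 4.05-fold in fl/fl cells and changed it by −0.23 in +/fl cells (adjusted p 0.0872), an interaction of −1.79 (SE 0.15, adjusted p 0.00271). A second probe had −1.74 (SE 0.22, adjusted p 0.028 over all probes).

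Jhy, a gene of motile cilia, and Lrrc23, a component of cilia and flagella, were bright in resting fl/fl cells. Jhy read 2.84, 2.72 and 2.98 there and was not well above background on any +/fl array, so it was at least 271-fold higher in resting fl/fl than in resting +/fl cells. After LPS the fl/fl arrays read −4.58, −4.08 and −7.70, the last below background. The fitted interaction was −7.76 (SE 1.06, adjusted p 0.0344) and rests on levels at background in +/fl cells. A second, dimmer probe had −3.84 (adjusted p 0.148 over all probes). Lrrc23 read 0.44 to 0.75 in resting fl/fl and −2.40 to −1.52 in resting +/fl cells, and −3.55 to −2.90 in all 6 LPS arrays (interaction −2.11, SE 0.32, adjusted p 0.0433).

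Psd3, an exchange factor for the small GTPase Arf6, read 1.13, 2.13 and 2.37 in resting fl/fl cells and −3.44, −2.92 and −3.40 after LPS, against −0.77, −0.28 and −0.52 and then −2.68, −2.73 and −2.43 in +/fl cells. The fl/fl values were the higher at rest and the lower after LPS, without overlap at either point. The genotype difference passed at rest (2.40, limma adjusted p 0.00375) but not after LPS (−0.64, adjusted p 0.242). Psd3 fell 34.9-fold in fl/fl and 4.25-fold in +/fl cells (interaction −3.04, SE 0.42, adjusted p 0.0344). Its 3 other probes had −2.68, −2.45 and −1.90, none past the threshold. Tmem210, a predicted membrane protein, had −1.40 (SE 0.21, adjusted p 0.0433), and a second probe −1.11 (adjusted p 0.041 over all probes). Nr2f6, an orphan nuclear receptor, read 2.24 to 2.46 in resting fl/fl cells and 1.20 to 1.75 elsewhere (interaction −1.09, SE 0.17, adjusted p 0.0451).

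BC039093, with no function known here, was the 1 member whose genotype difference was absent from the calls at rest (0.14, adjusted p 0.493). It read 2.66 to 3.08 on all resting and LPS +/fl arrays and averaged 1.90 ± 0.09 (SD) in LPS fl/fl cells, below all the others (interaction −1.11, SE 0.17, adjusted p 0.0485). Its second, dimmer probe went the other way, at 0.38 (adjusted p 0.681 over all probes), so its direction holds for 1 probe only. In all, 16 of the 30 genes had other probes among those tested, 20 in number. The sign was that of the main probe at 19 of them, and 3 passed over all probes, those of Plaur, Atp10d and Tmem210.

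The last group held 5 genes that LPS raised in +/fl cells and raised less or did not raise in fl/fl cells: Adat2, 1810055G02Rik, Ubxn7, Snapc3 and Usp24. Adat2, the catalytic subunit of the enzyme that edits adenosine to inosine in tRNA, read 0.17, −0.29 and −0.16 in resting +/fl cells and 1.50, 1.61 and 1.45 after LPS. In fl/fl cells it read 0.90, 0.56 and 0.76 and then 0.88, 1.07 and 1.03. Resting fl/fl cells began above the controls and LPS fl/fl cells ended below them, with no overlap at either point. The genotype difference passed at rest (0.83, limma adjusted p 0.0108) but not after LPS (−0.52, adjusted p 0.0832). The rise with LPS was 3.06-fold in +/fl cells and 1.19-fold in fl/fl cells (adjusted p 0.147), an interaction of −1.36 (SE 0.19, adjusted p 0.0417).

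Ubxn7, a cofactor of the p97 segregase, rose 2.22-fold in +/fl cells and by 0.21 (log2) in fl/fl cells (adjusted p 0.0519), an interaction of −0.94 (SE 0.12, adjusted p 0.022). A second, dimmer probe of Ubxn7 had −0.50 (adjusted p 0.186 over all probes). Snapc3, a subunit of the complex that starts small nuclear RNA genes, had −0.91 (SE 0.14, adjusted p 0.0433), but its other 2 probes had −0.13 and −0.11. Usp24, a deubiquitinase, rose 1.89-fold in +/fl cells and 1.05-fold in fl/fl cells (interaction −0.85, SE 0.13, adjusted p 0.0485). Its other 2 probes had −0.39 and −0.69 (adjusted p 0.268 and 0.595 over all probes). 1810055G02Rik rose 3.65-fold and 1.63-fold (interaction −1.16, SE 0.16, adjusted p 0.0344). Ubxn7, Snapc3 and Usp24 had the 3 smallest interactions of the 30. They passed with little spread, as in Ubxn7, whose group SDs were 0.02 to 0.08.

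**Figure D3:**
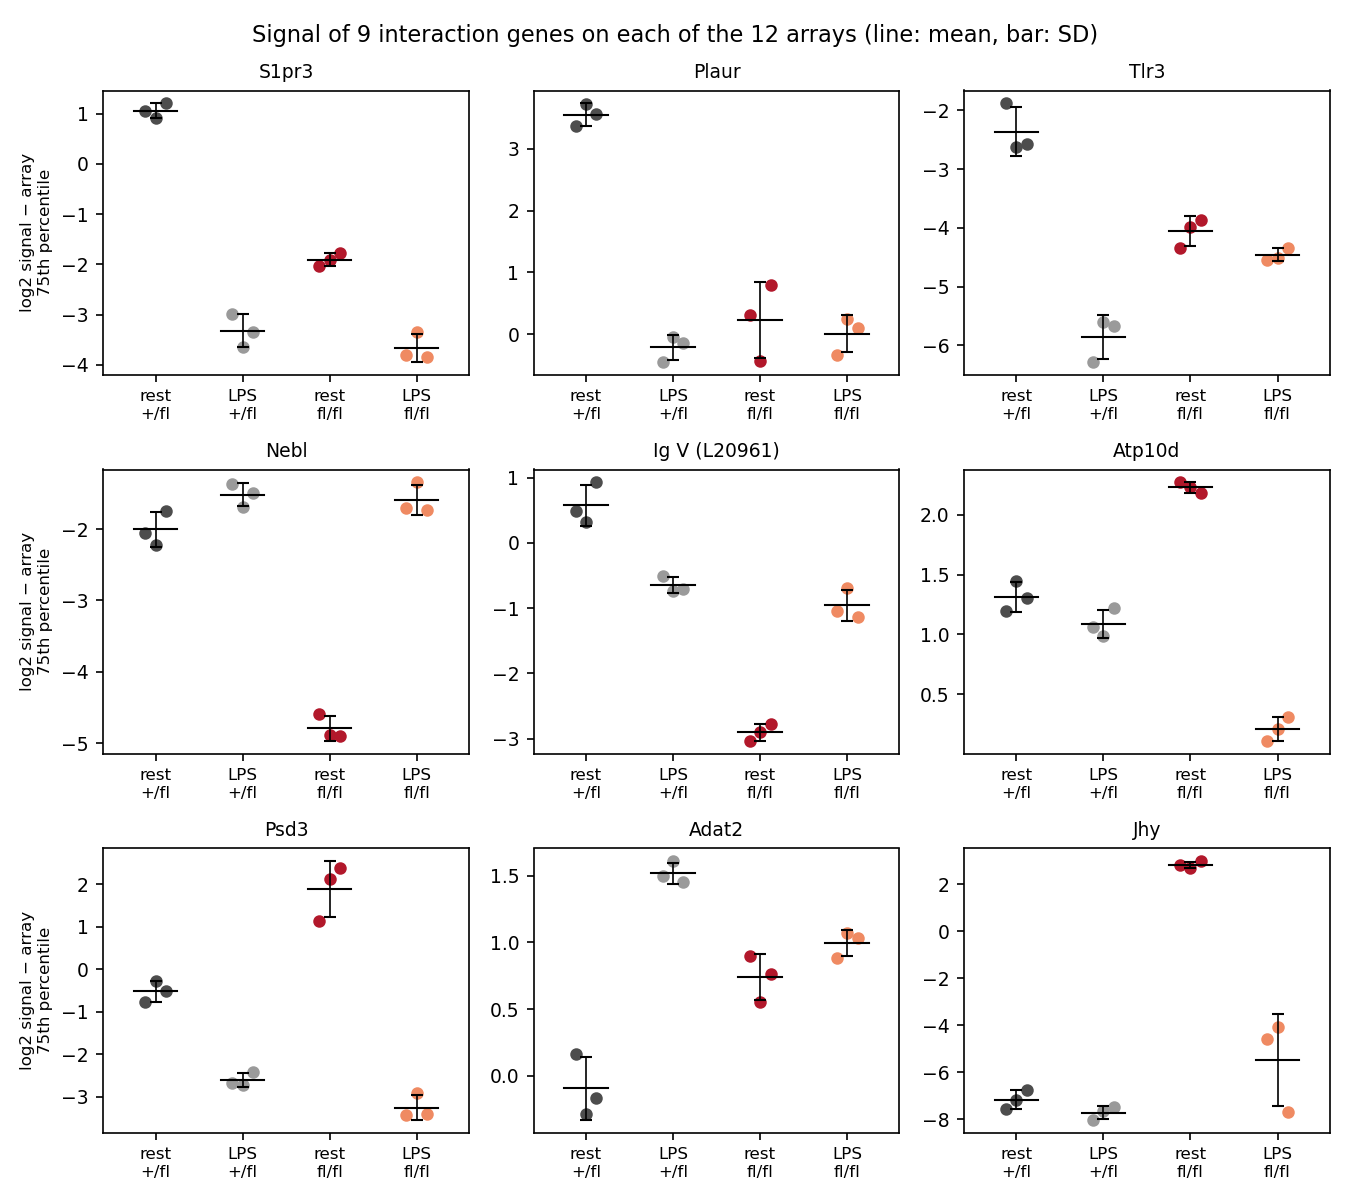
Signal of 9 interaction genes on each array (log2 relative to the array's 75th percentile), with the 3 arrays of each group as points, the mean as a line and the SD as a bar. For S1pr3, Plaur and Tlr3 the resting +/fl arrays are the highest, for Nebl and L20961 the resting fl/fl arrays are the lowest, and for Atp10d, Psd3 and Jhy the resting fl/fl arrays are the highest.

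**Figure D4:**
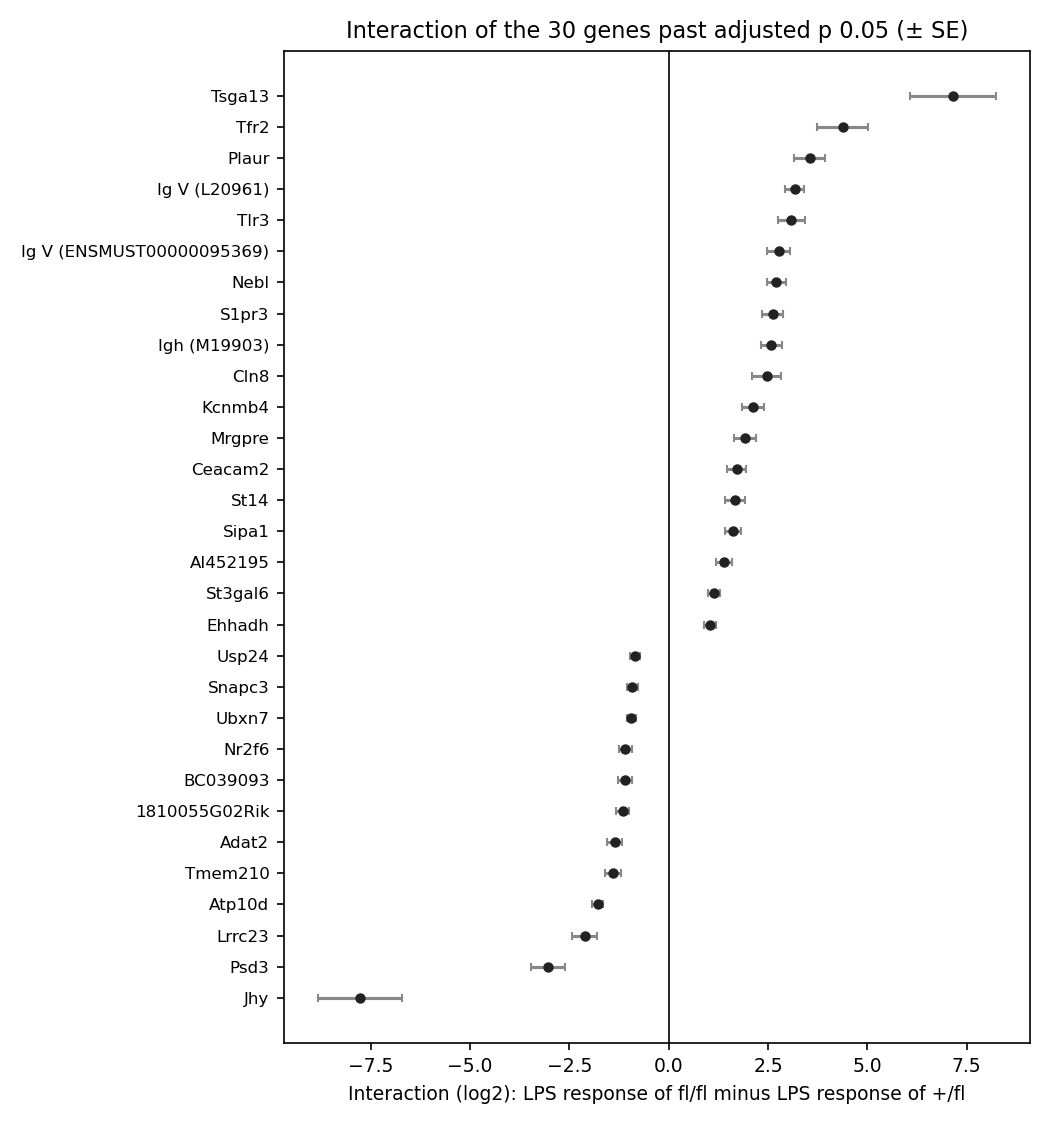
Interaction (log2, LPS response of fl/fl minus that of +/fl cells) with its standard error for each of the 30 genes, ordered by value. Values run from −7.76 (Jhy) to 7.15 (Tsga13), and both of those extremes also have the widest error bars.

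Dim genes depended on how background was handled. Normexp correction with an offset of 50, repaired by setting spots of high local background on 4 arrays to the array's median background, gave 0.90 for Nebl, 0.97 for Igh, 0.92 for Tlr3, 0.67 for Kcnmb4, 0.61 for AI452195, 1.06 for Tfr2 and 2.20 for Tsga13, while Plaur stayed at 3.39 and Atp10d at −1.62. Scaling by the array median shifted all values down, to 0.48 for Ehhadh, 0.58 for St3gal6, −1.49 for Ubxn7, −1.47 for Snapc3 and −1.40 for Usp24. All 30 kept their sign under both.

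The threshold falls in the middle of a run of like values. Just inside it were Nr2f6 (adjusted p 0.0451), Usp24 and BC039093 (both 0.0485), and just outside it Slc46a3 (0.0516) and Trem3, Cdk17, Pld4 and B3gnt8 (0.0523 each), with interactions of 0.84, 3.83, −1.37, 1.28 and 2.43. Slide 2 was the only slide with 1 array of every group, and within it the interaction had the same sign for all 30 genes. Those arrays also took part in choosing the genes, so the shared sign was largely fixed in advance and is no support. Slide 1 held no LPS fl/fl array and slide 3 no LPS +/fl array. With slide as a block 7 genes passed: L20961, Atp10d, Nebl, Igh, S1pr3, ENSMUST00000095369 and Jhy. The first 6 of these and Tlr3 were the 7 genes that passed whichever single array was left out. Every other member lost its call without at least 1 array.

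Of the 31 gene lists, 30 had no member past the threshold. With 0.175% of all genes past it, a list of this size would mostly hold none, so the lists are described by their medians. In the list of NF-kB and TLR response genes, 31 were tested, none passed in limma (2 above and 5 below 0 had an unadjusted p under 0.05), 13 were above 0 and the median interaction was −0.18, beside 0.01 and 51.1% above 0 over all genes. Its median LPS response was 1.45 in +/fl and 1.30 in fl/fl cells. Genes of MYC activity and ribosome biogenesis had a median response of 2.36 and 2.55 and an interaction of 0.03 (0 of 24 passed), cholesterol synthesis 2.04 and 1.81 and −0.24 (0 of 21), glycolysis 0.89 and 0.78 and −0.05 (0 of 16) and p53 targets 2.44 and 2.84 and 0.36 (0 of 15). The signs of these small medians are not firm: scaling by the array median turned those of the MYC list (−0.52) and p53 targets (−0.19), quantile normalization those of NF-kB (0.00) and glycolysis (0.09), and the unrepaired normexp correction those of NF-kB (0.19), glycolysis (0.21) and cholesterol synthesis (0.13), which the repaired one left at −0.13, −0.05 and −0.22. A p that misses the threshold does not show that responses were equal.

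Single genes of the activation lists came near the threshold. Il6, a cytokine that B cells secrete on LPS, was below background on all 6 resting arrays and averaged 1.03 in LPS +/fl and −1.01 in LPS fl/fl cells (interaction −2.06, SE 0.38, adjusted p 0.0635). Map3k8, a kinase of the TLR pathway, had 0.88 (adjusted p 0.0594). Ikzf3, a lymphoid zinc finger factor, had −1.18 (adjusted p 0.0605), and Tnfrsf13c, the receptor for the survival factor BAFF, −1.17 (adjusted p 0.0625). Fcer2a, which encodes CD23 of follicular B cells, had −1.82 (adjusted p 0.0942). B-lineage identity genes as a list had a median of −0.22 with 10 of 24 above 0. Of 18 marginal zone genes, 15 were above 0 with a median of 0.58 (0.03 with scaling by the array median), and S1pr3 alone passed.

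The largest list medians belonged to interferon-stimulated genes and to markers of other cells. All 22 interferon-stimulated genes were above 0 and none passed, 14 had an unadjusted p under 0.05 (8.81% of all genes did so above 0), and the median interaction was 1.70. Their median LPS response was −0.56 in +/fl and 1.45 in fl/fl cells. Array by array, relative to each gene's mean, the list's median was 1.10, −0.30 and 0.26 in resting +/fl, −0.74, −0.03 and −0.14 in LPS +/fl, −1.22, −0.76 and −0.00 in resting fl/fl and 0.42, 0.72 and 0.90 in LPS fl/fl cells. LPS fl/fl arrays are above all LPS +/fl and resting fl/fl arrays, and resting +/fl replicate 1 is above them all. Irf7, a master factor of the interferon response, had 3.14 (SE 0.83, adjusted p 0.106) and Oas2, an antiviral sensor of double-stranded RNA, 2.44 (adjusted p 0.113). Without resting +/fl replicates 1 and 3 the list's median was 0.91 with 20 of 22 above 0.

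**Figure D5:**
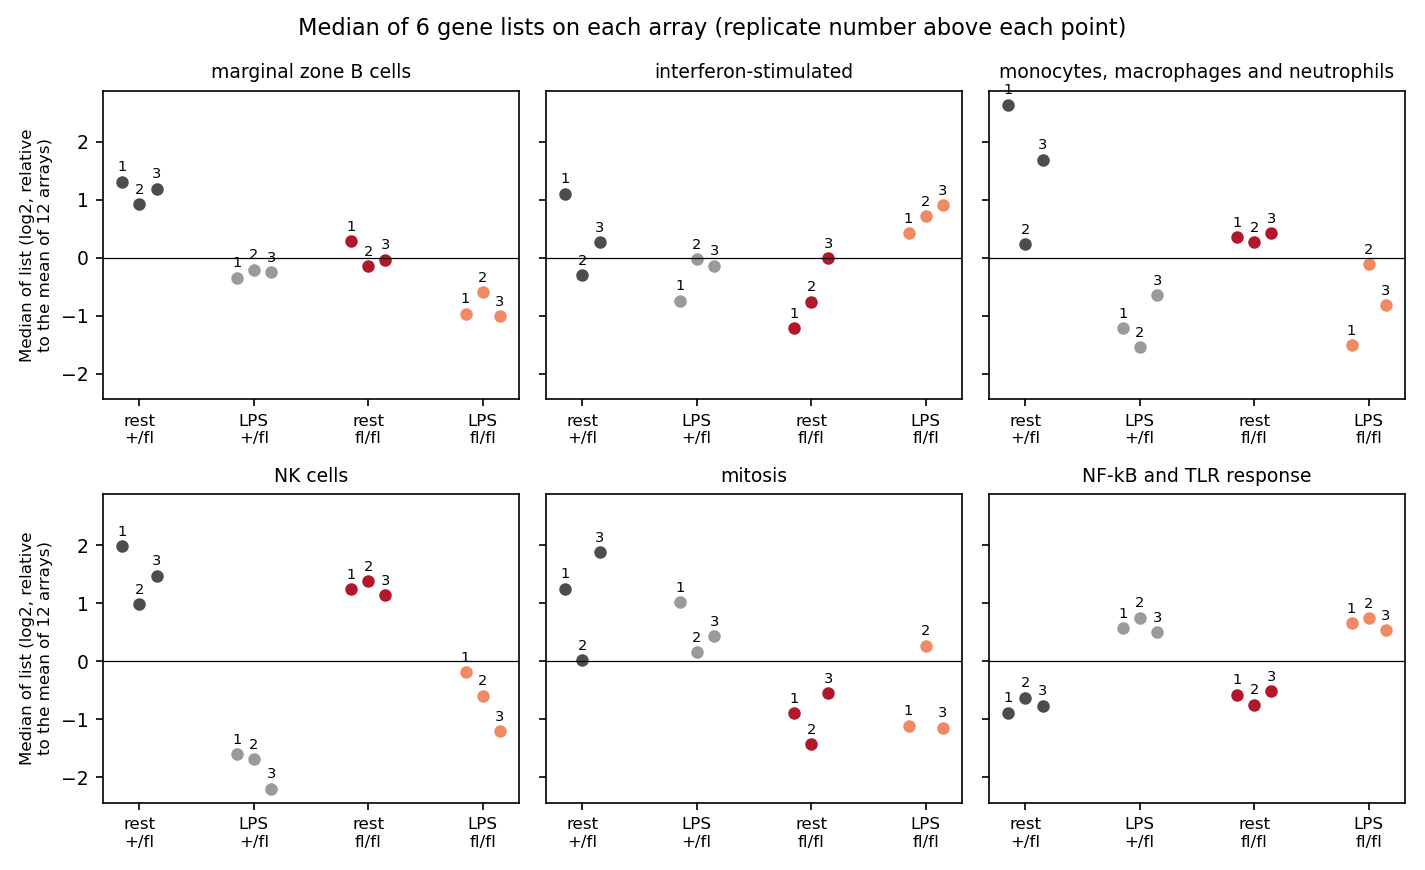
Median of 6 gene lists on each array (log2, each gene relative to its mean over the 12 arrays), by group, with replicate numbers above the points. In the interferon panel the LPS fl/fl arrays lie at 0.42 to 0.90, and in the myeloid panel resting +/fl replicates 1 and 3 lie at 2.64 and 1.69.

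Markers of other cells moved beside these lists. The summed signal of 18 measured of 19 myeloid markers was 154, 25.4 and 104 times the array's 75th percentile in resting +/fl cells, 19.4 to 26.9 in resting fl/fl, 13.7 to 93.4 in LPS +/fl and 22.2 to 78.7 in LPS fl/fl cells. Elane was not above background on 3 arrays anywhere, and Fcgr1, Mrc1, C1qa, C1qc and Vcam1 were below background on all LPS +/fl arrays. Mrc1 and C1qc were below background on all LPS fl/fl arrays as well. The myeloid list's median interaction was 1.73, with 16 of 18 above 0, 7 of them at an unadjusted p under 0.05, and none passing (0.98 without resting +/fl replicates 1 and 3). NK cell markers, 12 of 12 measured, summed to 29 to 63.7 in resting +/fl, 32 to 34 in resting fl/fl, 3.17 to 4.23 in LPS +/fl and 5.98 to 11.2 in LPS fl/fl cells, with no overlap of the LPS groups. All 12 were above 0, 9 at an unadjusted p under 0.05, and none passed (median 1.49, and 0.93 without those arrays). T cell markers, 15 of 15 above 0, had a median of 0.79 (0.19 without those arrays), and dendritic cell markers, 10 of 12 above 0, one of 1.16 (0.78). Stromal and endothelial markers, 7 of 10 measured and 6 of 7 above 0, had a median of 0.88 (0.07 with the repaired normexp correction). They summed to 1.09 to 1.29 in LPS +/fl and 1.86 to 2.29 in LPS fl/fl cells, without overlap. Cdh5, Pdgfrb, Madcam1 and Vwf were below background on all LPS +/fl arrays, so the sums there rest largely on Pecam1 (mean −0.34, log2). Platelet markers, 9 of 9 measured and 4 of 9 above 0, summed to 12.6 to 15.1 in resting fl/fl and 4.24 to 6.16 in resting +/fl cells. After LPS they summed to 1.76 to 2.51 in fl/fl and 0.94 to 1.54 in +/fl cells (median −0.38, and 0.36 with slide as a block). The sum was thus highest in resting fl/fl cells. Itgb3, at 2.83 to 3.49 (log2) in resting fl/fl cells, made up a large part of the sums there. Ppbp, Itga2b, Gp9, Gp5 and Gp6 were below background on all LPS +/fl arrays, and Ppbp on all LPS fl/fl arrays as well. Scaling by the array median lowered the medians to 1.15 for interferon-stimulated genes, 1.18 for myeloid, 0.94 for NK, 0.61 for dendritic, 0.33 for stromal and 0.23 for T cell markers. The part of these cells in any result here was not tested. Among the 12 genes that were high in resting +/fl cells, replicate 2, the control array with little myeloid signal, was the lowest of its group for 6 (S1pr3, Tlr3, Tsga13, Tfr2, Cln8 and St3gal6), the middle one for 3 and the highest for 3 (Plaur, Sipa1 and Ehhadh). Without replicates 1 and 3 all 30 genes kept their sign and 9 passed.

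Cell-cycle genes depended on the same arrays. Of 35 mitosis genes 34 were above 0 and none passed, with a median of 0.79 that became −0.26, with 15 above 0, without resting +/fl replicates 1 and 3, and that was −0.02 with slide as a block, −0.33 with the unrepaired normexp correction and 0.42 with the repaired one. The array medians of that list were 1.25, 0.02 and 1.88 in resting +/fl cells and −1.11, 0.26 and −1.15 in LPS fl/fl cells, where replicate 2, the array that stands apart, was the high one. Replication and G1/S genes had a median of 0.24 (−0.11 without those arrays, −0.32 with scaling by the array median).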

How the data were processed

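Scanner files of 12 Agilent 1-colour arrays (design 014868, Feature Extraction 9.5.3.1 per the file headers, 9.1 per the submitters' processing notes) hold the deposited intensity of each spot, already background-subtracted by that software. The authors' value table, also of deposited intensity, holds the same set of values in every column, as quantile normalization gives, with a Spearman correlation of 0.99988 to 0.99999 with the scanner values. It was used as an alternative. How the probe positions (mm7) were made is not stated.

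Spots marked as outliers were dropped (87 probes were lost). Log2 intensity minus the array's 75th percentile was taken for probes that at least 3 of 12 arrays showed well above background (25678 probes, 17134 genes, brightest probe per gene). Names came from the accession for 22951 of 41174 probes, from a current symbol for 6659, from an older symbol for 3109 and from the file for 8455. Group means were fitted with limma 3.58.1 (R 4.3.3, data.table, version 1.17.8), with Benjamini-Hochberg adjustment over all genes at 0.05. The fit had 1.79 prior degrees of freedom and was tested on simulated data. The number of arrays limits the precision.

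Genes were named by rule: Ebf1, the 12 largest interactions in each direction among genes that passed, the 4 smallest p in each combination of LPS directions, and up to 4 passing members of each list or else the 2 with the smallest p. Ceacam2, St14, Sipa1, AI452195 and Ehhadh, which passed outside that rule, the threshold's neighbours, Cr2 and the motifs were added after their values were seen. The question, the members and the 31 lists were chosen with earlier results of these data known. Deviations from the group means correlated at −0.145 to 0.126 between same-numbered arrays and at −0.109 to 0.133 between others. That gives no sign of pairing by replicate number, but with 3 arrays per group it cannot show that samples are unpaired. Resting +/fl replicate 3 and LPS +/fl replicate 1, whose sample names share a number, had 0.133, the highest of these values. Whether they came from 1 animal is not stated.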

Additional observations from a re-analysis of the deposited data

Results flagged for a closer look

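All 30 genes are listed here because a test of the difference itself, the limma interaction, set the LPS response of fl/fl cells apart from that of +/fl cells. Above 0 were Tsga13 (7.15), Tfr2 (4.38), Plaur (3.54), L20961 (3.17), Tlr3 (3.09), ENSMUST00000095369 (2.76), Nebl (2.71), S1pr3 (2.61), Igh (2.58), Cln8 (2.46), Kcnmb4 (2.13), Mrgpre (1.93), Ceacam2 (1.71), St14 (1.67), Sipa1 (1.61), AI452195 (1.39), St3gal6 (1.14) and Ehhadh (1.03). Below 0 were Jhy (−7.76), Psd3 (−3.04), Lrrc23 (−2.11), Atp10d (−1.79), Tmem210 (−1.40), Adat2 (−1.36), 1810055G02Rik (−1.16), BC039093 (−1.11), Nr2f6 (−1.09), Ubxn7 (−0.94), Snapc3 (−0.91) and Usp24 (−0.85).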

How the results depend on the processing

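With the main setting 30 genes passed. The count was 0 with normexp background correction (154 at an unadjusted p under 0.05), and 100 with it repaired (7, 20, 16 and 1 spots of high local background on 4 arrays set to the array's median), with 27 of the 30 among them. It was 10 with scaling by the array median (6 of the 30), 8 with no filter on dim probes, 238 with a filter on all 12 arrays, 7 with slide as a fixed block, 424 with eBayes trend and robust, 326 with array weights, 7 with the mean over a gene's probes, 5 at an adjusted p under 0.01 and 3 without 2 +/fl arrays with 1 number in both sample names (resting +/fl replicate 3 and LPS +/fl replicate 1). Quantile normalization gave 35 (18 of the 30), the deposited values 35 (17), slide as a random block 29 (29) and the fit without resting +/fl replicates 1 and 3 gave 25 (9). The replicate block gave 9 genes, all among the 30, although nothing shows that the numbers pair the samples. Leaving out 1 array gave 8 (without LPS +/fl replicate 1) to 140 (without resting +/fl replicate 2), and 7 genes passed each time. The median of all genes was 0.01 in the main setting, −0.54 with scaling by the array median, −0.20 with normexp and 0.16 with no filter, which tested 27634 genes.

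Of 805 values of single members under these alternatives, 380 kept their sign and their side of the threshold, 421 kept the sign but not the call, and 4 changed sign, all with the unrepaired normexp: Tfr2 (−0.22), Tlr3 (−0.29), Kcnmb4 (−0.32) and AI452195 (−0.11). Repaired, all 30 kept their sign. Among list genes that did not pass, the sign turned with normexp for Pimreg (−0.36), Ttk (−0.51), Uqcrc1 (0.0059), Gata2 (−0.56), Epor (−0.25), Rhag (−0.72), Clec9a (−0.39) and Cdh5 (−0.50), with the mean over probes for Klf2 (−0.14) and Hyou1 (0.17), with median scaling for Ndufb5 (−0.013) and Apex1 (−0.0097), and for Il7r without the arrays that share a number (−0.10) and without resting +/fl replicates 1 and 3 (−0.18). Causes were not tested. Genes below background in a group (Jhy, Tsga13, Tlr3, Tfr2) have only a bound there.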
